A study of Cynoglossus semilaevis with 24 samples.

Results

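The liver of the Chinese tongue sole (Cynoglossus semilaevis), a flatfish with a ZW sex chromosome system, was set against brain and pituitary of the same series. The comparison used 18 of the 24 RNA-seq libraries: 6 liver, 6 brain and 6 pituitary pools, with 3 pools per sex in each tissue. All fish were 2 years old, the labels name no treatment, each pool mixed tissue from 5 fish of 1 genetic sex, and the remaining 6 libraries were ovary and testis. Pooling hides the spread between single fish, so each test sets a difference against variation between pools and not between fish. In the fit of tissue and sex, that variation also includes sex differences that change with tissue. A gene was called liver-enriched when it passed the test as higher in liver than in brain and also than in pituitary, with sex as a term in the fit, and liver-depleted when it was lower than both. By that rule 4536 of 17770 genes tested were liver-enriched, which is 25.5% of them.

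Hepatocytes, the main cells of the liver, make most of the proteins of blood plasma: apolipoproteins that carry lipid, carriers of iron, haem and hormones, clotting factors, complement and protease inhibitors. They also release glucose, break down amino acids, turn cholesterol into bile acids and modify foreign compounds. A small set of transcription factors, among them HNF4A, the FOXA proteins and C/EBP alpha, holds this programme in vertebrates. In fish, liver IGF-I, made under the control of pituitary growth hormone, is the endocrine link between the pituitary and growth.

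Depth was 14236503 to 15409531 estimated counts in the livers, 10032337 to 13513509 in the brains and 10735709 to 12714594 in the pituitaries. The tissue labels matched their markers: the summed level of the hepatocyte list, in FPKM (fragments per kilobase of transcript, scaled to library size), was 82200 to 97200 in the livers, 1930 to 3470 in the brains and 122 to 406 in the pituitaries. Neuron markers summed to 9.15 to 12.8 FPKM in the livers, and 4 of the 25 neuron genes found were listed at 0 in all of them. The livers also held transcripts of digestive enzymes: the exocrine pancreas list summed to 132000, 92200 and 105000 FPKM in the 3 female livers and 121000, 55300 and 106000 in the 3 male livers, against 95.2 to 248 in brains and pituitaries. Of the 37 pancreas genes found, 1 was listed at 0 in all livers, and 27 of the 28 tested were liver-enriched, at either scaling described next. As background, exocrine pancreas lies in or close to the liver in many bony fishes. The part of pancreatic cells in the liver results was not tested, and in bulk tissue fewer cells of a type and less RNA per cell cannot be told apart.

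How many genes count as liver-enriched depended on the scaling between tissues. Counts were scaled by TMM (trimmed mean of M-values), which places the typical gene at no difference. Under it, the median log2 difference over all genes was -0.12 for liver minus brain and -0.14 for liver minus pituitary. Scaling by the count total of each library, which is also the basis of FPKM, lowered the differences by a median of 2.17 and 1.96 and put those medians at -2.28 and -2.08. At the count total 1121 genes, 6.31%, were liver-enriched, and all 1121 were among the 4536. A further 1932 of the 4536 were liver-depleted at the count total, and 3153 of the 4536 had a lower mean FPKM in liver than in brain or in pituitary. Folds and log2 differences below come from the TMM fit, and levels are deposited FPKM.

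Liver was higher than brain in 6333 genes (35.6%) and lower in 7544 (42.5%); it was higher than pituitary in 5990 (33.7%) and lower in 7226 (40.7%). Both held at once in the lower direction for 5401 genes (30.4%), and 13997 genes (78.8%) were liver-depleted at the count total. Differences of at least 16-fold over both tissues marked 686 genes, 3.86% of those tested, and 421 at the count total. In 873 of the 4536 every liver pool had a higher FPKM than every brain and pituitary pool. These genes were chosen as higher in liver and the count was not made over all 17770 genes, so it describes the set only. The calls are from the quasi-likelihood test of edgeR with Benjamini-Hochberg adjustment at 0.05. Just inside that threshold lay snrpg and mlx, each at an adjusted p of 0.0499 for the weaker contrast and both liver-depleted at the count total, and just outside lay dopey2 at 0.0506 and LOC103394109, transcription factor E2F3-like, at 0.0508, also both liver-depleted at the count total.

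**Figure D1:**
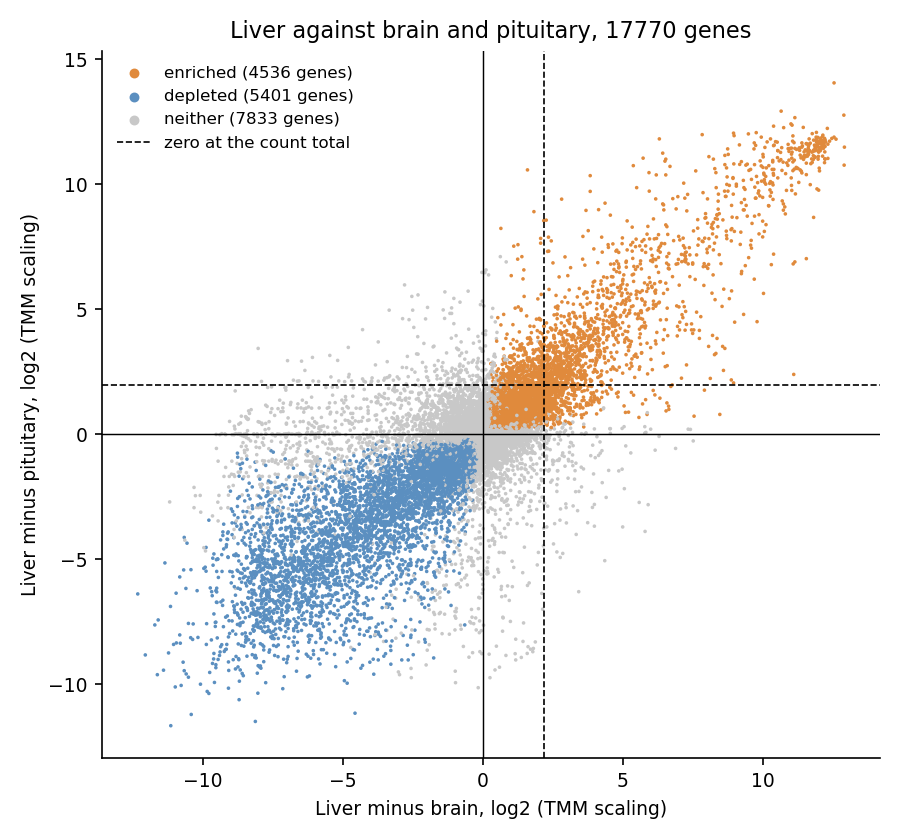
Log2 difference of liver minus brain (x axis) and liver minus pituitary (y axis) for each of 17770 genes, TMM scaling, with 4536 liver-enriched genes in orange, 5401 liver-depleted in blue and the others in grey. Dashed lines at 2.17 and 1.96 mark, by the median shift, where no difference at the count total falls, and many orange points lie between the solid lines at 0 and the dashed lines.

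A few transcripts filled the liver libraries. Between 30 and 35 genes made up 50% of the counts of a liver pool, against 845 to 968 in brain and 444 to 518 in pituitary, and the 10 most abundant genes took 25.2 to 29.2% of liver counts. Genes enriched at least 16-fold held 70.0 to 76.0% of liver counts, 0.928 to 1.34% of brain counts and 0.339 to 0.566% of pituitary counts. Those genes were chosen as higher in liver in these same libraries, so their smaller share in brain and pituitary was fixed by the choice. The 108 genes of the 4 secreted-protein lists (lipoprotein, plasma carrier, coagulation and complement genes) took 43.7 to 45.2% of counts in the female livers and 46.1 to 47.0% in the male livers. Pancreatic transcripts added 5.24 to 12.4%, with male liver 2 the lowest. Genes at 1 FPKM or more numbered 9904 to 10652 in a liver, 15948 to 16399 in a brain and 14754 to 15384 in a pituitary.

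**Figure D2:**
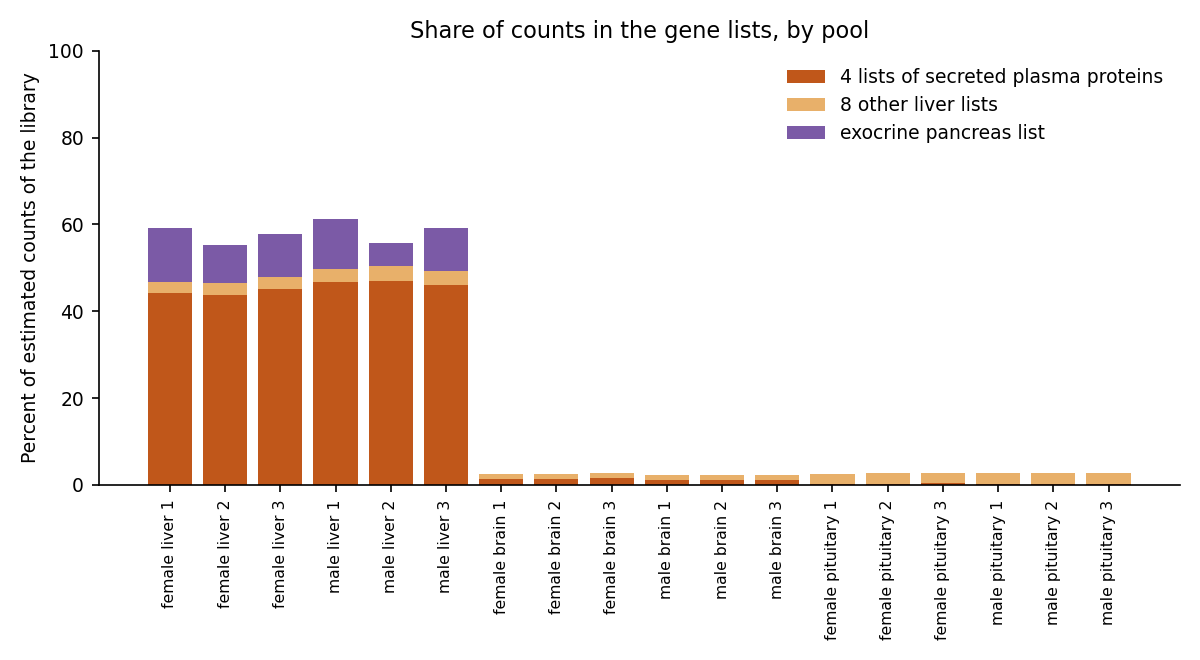
Percent of the estimated counts of each of the 18 pools (y axis) that fell in the 4 lists of secreted plasma proteins, the 8 other liver lists and the exocrine pancreas list. The secreted-protein lists took 43.7 to 47.0% of liver counts and 0.233 to 1.56% of brain and pituitary counts.

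The most abundant liver-enriched transcript with a known product was lect2, which encodes leukocyte cell-derived chemotaxin-2, a protein that the mammalian liver secretes into blood. Its level ran from 29690 to 50063 FPKM in the livers with a median of 44100, from 35.0 to 56.3 in the brains and from 37.6 to 144 in the pituitaries. No liver pool overlapped with the other tissues, and liver exceeded brain by 11.99 ± 0.46 (SE) and pituitary by 11.29 ± 0.45 on the log2 scale (adjusted p = 1.32e-15 for the weaker). Next came apoa1, the main protein of high-density lipoprotein, at 24778 to 33123 FPKM in liver, and tfa, the iron carrier serotransferrin, at 14702 to 32951. Both also had a clear level in brain, 1080 to 1961 FPKM for apoa1 and 762 to 1399 for tfa, and their excess over brain was 6.50 ± 0.33 and 6.68 ± 0.34 on the log2 scale, against 10.93 ± 0.40 and 10.72 ± 0.40 over pituitary.

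Among the 12 most abundant were 4 pancreatic proteases: trypsase (trypsin-1), LOC103377202 (an elastase) and the chymotrypsins LOC103378813 and LOC103378820. The first of these had 12568 to 29843 FPKM in the livers, lowest in male liver 2, and 15.7 to 48.6 FPKM in the other tissues. The remaining 5 were complement C3 (LOC103383921) at 9511 to 11300 FPKM, the fibrinogen gamma chain fgg at 7743 to 9042, a type-4 ice-structuring protein (LOC103394268) at 7087 to 19193, a 14 kDa apolipoprotein (XLOC_006748) at 6416 to 9854 and a tributyltin-binding protein (LOC103393827) at 6220 to 13438. All 12 were also enriched at the count total.

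For most abundant liver transcripts the brain and pituitary levels were a nearly fixed small share of the liver level. Of 97 liver-enriched genes at 1000 FPKM or more in liver, 62 were at or below 0.2% of the liver level in brain and 65 in pituitary. The 16 pancreas genes among them had a median of 0.104% in brain (range 0.0796 to 0.175%) and 0.119% in pituitary, and the 81 others 0.147% and 0.156%. In the reverse direction, the 9 pituitary hormone genes at 1000 FPKM or more in pituitary had a median of 0.0524 to 0.0651% of the pituitary level in the 6 livers. Female pituitary 3, at 0.223% for the pancreas genes, and male pituitary 3, at 0.151%, stood above the other 4 pituitaries, at 0.0837 to 0.0915%. Log2 differences near 12 belong to genes at about this share, so their order carries no reading here, and the source of the low level outside liver was not tested.

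In contrast, 26 of the 97 genes exceeded 1% of their liver level in brain and 20 did in pituitary. They included apoeb at 104% in brain and 7.71% in pituitary, the 14 kDa apolipoprotein at 11.1% in brain, the angiotensinogen gene agt at 8.19%, the lipocalin LOC103376894 at 7.34% and selenoprotein P (sepp1) at 6.75%. Ribosomal protein and elongation factor genes made up many of the rest. These examples were chosen after their values were seen.

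The liver programme was followed in 12 gene lists, which hold 412 genes found in the table, of which 368 were tested. Of these 280 were liver-enriched (76.1%, against 25.5% of all genes) and 33 liver-depleted. At the count total 207 were enriched (56.2%, against 6.31%). Of all genes 30.4% were liver-depleted with TMM and 78.8% at the count total, the shares to set beside depleted counts of single lists.

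**Figure D3:**
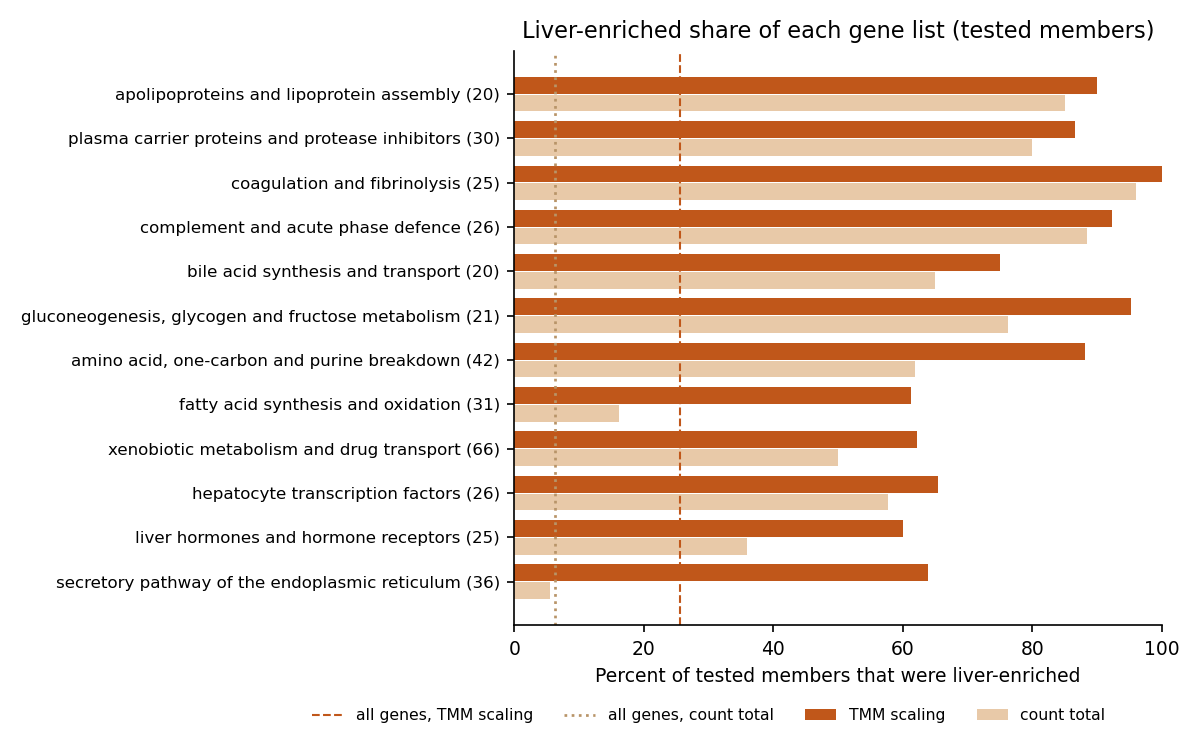
Percent of the tested members of each gene list (number tested in brackets) that were liver-enriched, under TMM scaling (dark bars) and at the count total (light bars). Dashed and dotted lines mark the share over all genes, 25.5% and 6.31%; the secretory pathway bar falls from 23 of 36 genes to 2 of 36.

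Apolipoprotein and lipoprotein assembly genes were mostly liver-enriched. Of 20 tested, 18 were enriched (17 at the count total), with a median log2 difference of 8.43 over brain and 10.21 over pituitary. The liver fatty acid-binding protein gene fabp10a had 801 to 2393 FPKM in the livers and 0.33 to 3.64 elsewhere, without overlap. The apolipoprotein C-II gene LOC103389014, whose product activates lipoprotein lipase, had 1181 to 1624 FPKM and at most 3.84 elsewhere. In apoeb, apolipoprotein E, liver (682 to 2410 FPKM) and brain (1215 to 2183) overlapped: it was enriched by 2.08 ± 0.24 over brain with TMM, and its difference from brain was -0.06 at the count total. The phospholipid transfer gene pltp was not enriched: it was lower in liver (4.71 to 12.9 FPKM) than in brain (118 to 161), by -1.86 ± 0.16, and differed from pituitary by 0.58 ± 0.16 with TMM and by -1.37 at the count total.

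Plasma carriers and protease inhibitors were also mostly enriched. Of 30 tested, 26 were enriched (24 at the count total), with medians of 10.46 over brain and 11.01 over pituitary. The highest after tfa were ambp, precursor of alpha-1-microglobulin and bikunin, at 7718 to 9048 FPKM, an alpha-1-antitrypsin (LOC103380731) at 5306 to 8351, and the haem carrier hpxb at 5382 to 7182. No other tissue pool exceeded 28.9 FPKM for any of these 3 genes. The 3 depleted members were lower at either scaling, as were all 5401 liver-depleted genes. Of the 3, LOC103381370, a protein Z-dependent protease inhibitor, had 4.08 to 7.47 FPKM in liver, 208 to 244 in brain and 416 to 579 in pituitary. Another, XLOC_026097, annotated as alpha-1-acid glycoprotein, had 0.06 to 0.18 in liver against 80.3 to 169 in brain.

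Coagulation was the one list with every tested member enriched, 25 of 25, and 24 of 25 at the count total. Its medians were 10.97 over brain and 10.89 over pituitary. Within each sex, 25 of its members were enriched in females and 24 in males. One member, LOC103397136, is placed on the W chromosome, with a mean of 207 FPKM in the female livers and 0.117 in the male livers. The fibrinogen genes fgg and fgb had 7743 to 9042 and 7707 to 8663 FPKM in the livers. Factor XIII B chain (LOC103395791), the carrier subunit of the enzyme that crosslinks fibrin, had 3400 to 4276, and kininogen-1 (kng1) had 2427 to 2838, with no value above 25.2 FPKM for any of the 4 in another tissue. The 6 livers lay close together for each of these genes and far above the other tissues.

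Complement genes were enriched in 24 of 26 cases (23 at the count total), with medians of 10.84 and 11.31. The terminal pore-forming component c9 had 6950 to 8954 FPKM, and a second complement C3 gene, LOC103383919, had 5403 to 6393. CD59 genes, whose product on cell surfaces blocks the complement pore, went in different directions. XLOC_016089 had 2692 to 4017 FPKM in liver and at most 38.6 elsewhere, while LOC103389817 had 0.49 to 1.26 in liver and 1533 to 1831 in brain, a difference of -8.63 ± 0.29, and its difference from pituitary was 0.73 ± 0.29 with TMM and -1.24 at the count total. LOC103379728 was higher in liver than in brain by 0.63 ± 0.08 and lower than in pituitary, at -0.53 ± 0.08, with TMM, and it was liver-depleted at the count total. The 3 CD59 genes share a product name, and how reads were divided between them is not given in the sources used here.

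Sugar metabolism genes were enriched in 20 of 21 cases (16 at the count total), with medians of 6.17 and 6.27. Fructose-1,6-bisphosphatase (fbp1b), an enzyme needed to make glucose, had 241 to 502 FPKM in liver and at most 1.55 elsewhere. The glucose transporter slc2a2 (GLUT2), with 129 to 213 FPKM, was enriched by 10.36 ± 0.22 and 9.98 ± 0.22. The exception was slc37a4b, 1 of the glucose-6-phosphate translocase genes, which had at most 0.10 FPKM in liver and 4.24 to 5.90 in brain.

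Genes for amino acid, one-carbon and purine breakdown were enriched in 37 of 42 cases, and in 26 of 42 at the count total, where 8 were depleted. The medians were 5.03 and 5.16. Tryptophan dioxygenase (tdo2), at 555 to 698 FPKM, and the tyrosine pathway enzyme hpda, at 427 to 574, had at most 2.14 FPKM in any brain or pituitary. Betaine-homocysteine methyltransferase (LOC103397629) ran from 214 to 864. The mitochondrial glutamate dehydrogenase glud1b was present in all tissues, at 172 to 427 FPKM in liver, 128 to 132 in brain and 65.8 to 78.6 in pituitary. Arginase-2 (arg2), a mitochondrial arginase, was not enriched: its differences were 0.91 ± 0.20 and -0.82 ± 0.20, and it was depleted at the count total.

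Calls for fatty acid genes depended on the scaling, as did calls over all genes. Of the 4536 liver-enriched genes 24.7% stayed enriched at the count total, where 78.8% of all genes tested were depleted. Of 31 fatty acid genes tested, 19 were enriched and 7 depleted with TMM, while 5 were enriched and 19 depleted at the count total. Their medians were 0.84 over brain and 0.84 over pituitary, and -1.33 and -1.14 at the count total. The beta-oxidation gene acadm had 40.4 to 62.0 FPKM in liver, 76.6 to 92.0 in brain and 75.1 to 95.4 in pituitary: liver was lower in every pool, yet acadm was enriched by 1.38 ± 0.09 and 1.15 ± 0.09 with TMM and depleted at the count total. LOC103384097, for a mitochondrial oxidation enzyme, was enriched with TMM and neither enriched nor depleted at the count total. A member enriched at either scaling was dgat2, which makes triglyceride, with 27.1 to 63.6 FPKM in liver and at most 0.68 elsewhere. The lipogenic regulator srebf1 (0.03 ± 0.10 against pituitary) and the liver isoform of the carnitine transferase, cpt1ab (-0.14 ± 0.09 against brain), were not enriched, and both were depleted at the count total.

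Bile acid genes were enriched in 15 of 20 cases (13 at the count total), with medians of 4.52 and 4.89. The bile salt export pump abcb11 had 15.4 to 59.5 FPKM in liver and at most 0.13 elsewhere. The acyl-CoA synthetases LOC103380466 and slc27a2 and the carrier scp2 were enriched by 3.75 to 6.72 on the log2 scale. In contrast cyp7a1, the rate-limiting enzyme of bile acid synthesis in mammals, was higher in brain. It had 0.37, 0.07 and 0.19 FPKM in the 3 female livers and 4.92, 1.34 and 2.08 in the 3 male livers, against 28.0 to 43.1 in the brains and 0 to 0.33 in the pituitaries. Liver was lower than brain by -2.51 ± 0.61 and higher than pituitary by 4.97 ± 0.91 (edgeR adjusted p = 0.0013 for the weaker), and both differences kept their sign at the count total.

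Xenobiotic genes were enriched in 41 of 66 cases and depleted in 12 (33 and 21 at the count total), with medians of 2.97 and 3.37. Over all genes 25.5% were enriched and 30.4% depleted (6.31% and 78.8% at the count total). Microsomal glutathione transferase (LOC103383009) had 189 to 344 FPKM in liver, the alcohol dehydrogenase adh5 had 145 to 275 and the glucuronosyltransferase LOC103390352 had 108 to 238. The glutathione transferase gstr overlapped with brain: it had 88.4 to 321 FPKM in liver and 147 to 180 in brain, was enriched by 2.29 ± 0.27 over brain with TMM and did not pass at the count total. The efflux pump abcg2a had 4.61 to 17.7 FPKM in liver and 40.4 to 52.0 in brain, and the aldehyde reductase akr1a1 had 4.42 to 10.6 and 26.4 to 33.3. With TMM their differences from brain were -0.16 ± 0.21 and 0.04 ± 0.12, and both were depleted at the count total.

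Of the hepatocyte transcription factors, 17 of 26 were enriched (15 at the count total), with medians of 3.62 and 4.28. The nuclear receptor gene hnf4a had 27.1 to 35.2 FPKM in the livers, 0.24 to 0.50 in the brains and 0.23 to 0.76 in the pituitaries, a difference of 8.71 ± 0.19 and 7.83 ± 0.18. The forkhead gene foxa2 had 16.2 to 28.2 FPKM in liver, 0.41 to 1.52 in brain and 0 to 0.19 in pituitary. In both genes liver stood apart from the other tissues. The C/EBP genes were closer: cebpa had 25.8 to 37.9 FPKM in liver and 8.97 to 24.6 in brain, and cebpb had 53.2 to 145 in liver and 19.4 to 50.3 in brain, both enriched at either scaling, though the cebpb livers overlapped with the pituitaries (9.02 to 58.7). The stress-responsive cebpd had 54.6 to 467 FPKM in pituitary and 12.7 to 95.4 in liver, a difference of -0.35 ± 0.24 with TMM (adjusted p = 0.197), and was depleted at the count total. The retinoid partner receptor rxra was lower in liver than in pituitary, by -1.04 ± 0.41 on the log2 scale, and higher than in brain, by 2.66 ± 0.43, with the same signs at the count total.

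Growth and hormone genes were mixed. Of 25 tested, 15 were enriched, 1 was depleted and 9 were neither (9, 8 and 8 at the count total). At the count total 6.31% of all genes were enriched and 78.8% depleted. The list had medians of 2.10 and 1.51, and of -0.07 and -0.43 at the count total. The growth factor igf1 had 71.7, 79.9 and 69.5 FPKM in the female livers and 58.9, 32.7 and 52.8 in the male livers, against 3.59 to 5.54 in brain and 0.26 to 1.88 in pituitary. Every liver pool was higher than every other pool, and the difference was 5.89 ± 0.29 over brain and 8.32 ± 0.34 over pituitary. The growth hormone receptor ghr, on the Z chromosome of the reference assembly Cse_v1.0, had 22.4 to 31.5 FPKM in liver and 1.97 to 5.07 elsewhere. The paralog igf2 was low in liver, at 6.46 to 12 FPKM against 19.4 to 24.5 in brain: it was enriched by 1.07 ± 0.19 over brain with TMM, a difference of -1.12 at the count total.

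The IGF-binding protein genes did not move together. LOC103396286, an IGFBP-1, had 24.2 to 152 FPKM in liver and at most 0.30 elsewhere, while igfbp1a had 1.63 to 34.8 in liver and 23.8 to 108 in pituitary, was not enriched with TMM and was depleted at the count total. The gene igfbp2 had 110 to 165 FPKM in liver and 401 to 646 in pituitary, and liver differed from pituitary by 0.06 ± 0.15 with TMM and by -1.92 at the count total. The thyroid hormone deiodinase dio1 was enriched at either scaling (38.6 to 72.7 FPKM), as was LOC103395967, an angiopoietin-related protein 4 (117 to 321). Hepcidin (hamp), which limits iron export, had 107 to 197 FPKM in the female livers and 154 to 745 in the male livers, with male liver 2 the highest, and at most 20.8 elsewhere.

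Vitellogenin, the yolk precursor that the liver of egg-growing female fish makes under oestrogen, was near 0. Across its 4 genes the highest value in any of the 6 livers was 0.99 FPKM, and 3 of the genes did not reach the level needed for testing. The tested one, LOC103392297, had 0.11 to 0.52 FPKM in liver and 1.85 to 2.60 in brain.

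The secretory pathway of the endoplasmic reticulum, through which all plasma proteins pass, gave 23 enriched and 3 depleted genes of 36 with TMM. At the count total 2 were enriched and 10 depleted, where 6.31% and 78.8% of all genes were. So 2 of 36 lies near the share over all genes. The list medians were 2.67 over brain and 0.77 over pituitary, and 0.49 and -1.18 at the count total. The folding enzyme p4hb had 397 to 472 FPKM in liver, 115 to 128 in brain and 478 to 886 in pituitary, so liver lay between the tissues in FPKM. It was enriched over pituitary by 1.41 ± 0.14 with TMM, and the difference was -0.56 at the count total. Calreticulin (LOC103399827) and pdia3 showed the same order, also with a negative difference from pituitary at the count total. The chaperones hspa5 and canx were not enriched, and canx was depleted at the count total.

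**Figure D4:**
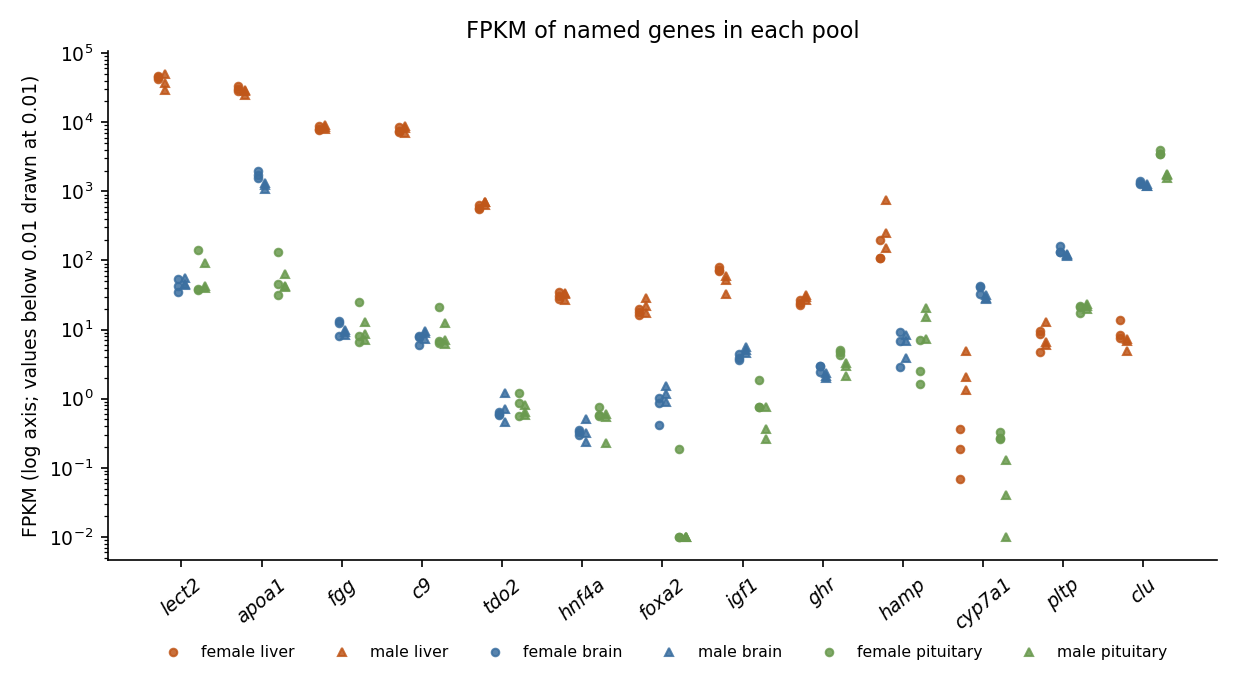
FPKM on a log axis for 13 named genes in each of the 18 pools (circles female, triangles male; liver orange, brain blue, pituitary green; values below 0.01 drawn at 0.01). The livers lie above all other pools for lect2 through hamp, while for cyp7a1, pltp and clu the brain pools lie above the livers.

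Among genes at 50 FPKM or more in liver, 8 were chosen by the size of their fitted difference: thrsp, named mid1-interacting protein 1-B-like in the annotation, and 7 others. The brain pools held 2 thrsp counts in all and the pituitary pools none, which puts liver at least 4860-fold higher than pituitary when 3 counts are set over the pituitary pools together. Its levels varied widely, at 68.6, 5.87 and 68.0 FPKM in the female livers and 201, 22.3 and 155 in the male livers. Those 7 were the perforin-like genes LOC103397359 and LOC103397361, the lipases cel.2 and LOC103397968, amylase, akr1a1a and the beta-microseminoprotein XLOC_025667, whose smaller difference lay between 11.88 and 12.24 on the log2 scale, near the value of genes at the low share outside liver given above, so they are not ranked. All 8 were enriched at the count total, whose median shift of 2.17 for brain and 1.96 for pituitary is small beside differences of this size.

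Genes at least 16-fold lower in liver than in both other tissues numbered 1458 (8.2%). The 8 with the highest level in brain and pituitary are given here. All 5401 liver-depleted genes were also depleted at the count total, which lowered the differences, so that scaling was no separate check of these 8. Clusterin (clu), an extracellular chaperone, had 4.88 to 13.7 FPKM in liver, 1205 to 1415 in brain and 1539 to 3907 in pituitary, a difference of -5.19 ± 0.21 and -6.35 ± 0.22. Carboxypeptidase E (cpe), which trims peptide hormones in secretory granules, had 0.85 to 1.64 FPKM in liver and 750 to 932 in pituitary, and pcsk1nl, an inhibitor of a prohormone convertase, 0.72 to 1 and 782 to 990. The others were the tubulin genes LOC103385219, tuba1a and LOC103389754, tubb, which the annotation describes as another protein, and LOC103398126, a toxin-binding protein with 1990 to 3311 FPKM in brain. Of the 20 neuron markers tested, 17 were depleted, against 30.4% of all genes, and none was enriched. At the count total 18 were depleted, where 78.8% of all genes were. Of the 20 glia markers tested, 4 were enriched, 4 depleted and 12 neither, against 25.5% enriched and 30.4% depleted over all genes.

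Described within each sex, the programme was largely shared. In females 4027 genes (22.7%) and in males 4241 (23.9%) were higher in liver than in both tissues of that sex. The 3481 in both sets were 86.4% of the female set and 82.1% of the male set, which rest on separate pools in 1 fit. Of the 368 tested list genes, 263 were in both sets, 12 in the female set only and 9 in the male set only. At the count total the sets held 1033 and 1083 genes.

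A gene in 1 set only need not differ between the sexes, so the liver excess itself, liver minus the mean of brain and pituitary, was compared between them. This excess was compared for all genes tested, also those not higher in liver. It was larger in females for 353 genes (1.99%) and larger in males for 553 (3.11%), and at the count total for 389 and 372. Of the 546 genes in the female set only, 53 passed this test, and of the 760 in the male set only, 135. Among the 4536 liver-enriched genes 72 passed with a larger excess in females and 237 with a larger excess in males. Without female liver 2 the counts over all genes were 234 and 331.

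The excess was larger in males for the immediate-early genes fosab and junbb. The transcription factor gene fosab had 10.2, 27.6 and 37.9 FPKM in the female livers and 207, 536 and 400 in the male livers, and the excess differed by -4.51 ± 0.54 (female minus male; edgeR adjusted p = 0.000329). Its level in the male livers was above every brain and pituitary pool (30.2 to 153), and the female livers, at most 37.9, overlapped only the lowest brain pool. For junbb the livers had 14.4, 14.8 and 22.9 FPKM in females and 68.8, 128 and 92.4 in males, and the excess differed by -3.73 ± 0.35 (adjusted p = 1.59e-05). The phosphatase gene dusp2 and miox, the enzyme that opens the inositol ring, also had a larger excess in males, at -3.86 ± 0.56 and -3.69 ± 0.53. The excess also holds the brain and pituitary levels. Between the livers alone the log2 difference was -4.03 for fosab, -2.57 for junbb, -2.70 for dusp2 and -3.64 for miox. The liver call of dusp2 held in 2 of 6 fits without 1 liver pool. Both fosab and dusp2 were enriched with TMM and not at the count total, where dusp2 differed from pituitary by -0.31.

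In females the excess was larger for LOC103397136, cps1, plod2 and LOC103380098. LOC103397136 is a heparin cofactor 2-like gene placed on the W chromosome of Cse_v1.0. It had 227, 191 and 203 FPKM in the female livers, 0.10 to 0.13 in the male livers and at most 0.49 in any brain or pituitary. Genetic males carry no W and each pool held fish of 1 genetic sex, so its higher level in female than in male livers was fixed by genotype. The urea cycle enzyme gene cps1 had 2.68, 4.78 and 10.4 FPKM in the female livers and 0.60, 0.37 and 1.09 in the male livers, an excess difference of 3.20 ± 0.63 (adjusted p = 0.00914). The leptin-like gene LOC103380098 had 4.35, 6.37 and 2.97 in the female livers and 0.50, 0.72 and 1.07 in the male livers (2.65 ± 0.44, adjusted p = 0.00116), and for the collagen-modifying enzyme plod2 the difference was 2.68 ± 0.47. Of these, cps1, plod2 and LOC103380098 were enriched with TMM and not at the count total, where plod2 and LOC103380098 differed from brain by -0.01 and -0.18.

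Compared directly, female and male livers differed in 721 of 10566 genes, with 199 (1.88%) at a higher level in the female pools and 522 (4.94%) in the male pools, and 210 and 328 at the count total. Genes placed on W, which genetic males lack, were among those higher in females and were not counted apart. When a difference of at least 2-fold was required the lean turned, with 87 higher in females and 69 in males. That turn therefore cannot be read as a result about the liver programme. The count leaned on single pools: without female liver 2 it was 24 and 174, without female liver 3 it was 32 and 167, without male liver 3 it was 113 and 190, and without male liver 1 it was 131 and 343. It moved less without female liver 1, at 121 and 427, and without male liver 2, at 217 and 463. Of the 4381 liver-enriched genes tested, 67 were higher in females and 267 in males. In the 12 lists, of 320 tested, females had the higher level of 8 and males of 42 (8 and 31 at the count total), with a median log2 difference of -0.20 against 0.02 over all genes. Of these 50, 38 were liver-enriched, and in 9 of the 50 the call held in every fit that left out 1 liver pool and still tested the gene. The hepatocyte list itself summed to 94600 to 97200 FPKM in the female livers and 82200 to 85800 in the male livers, and none of its 16 members tested for sex passed.

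**Figure D5:**
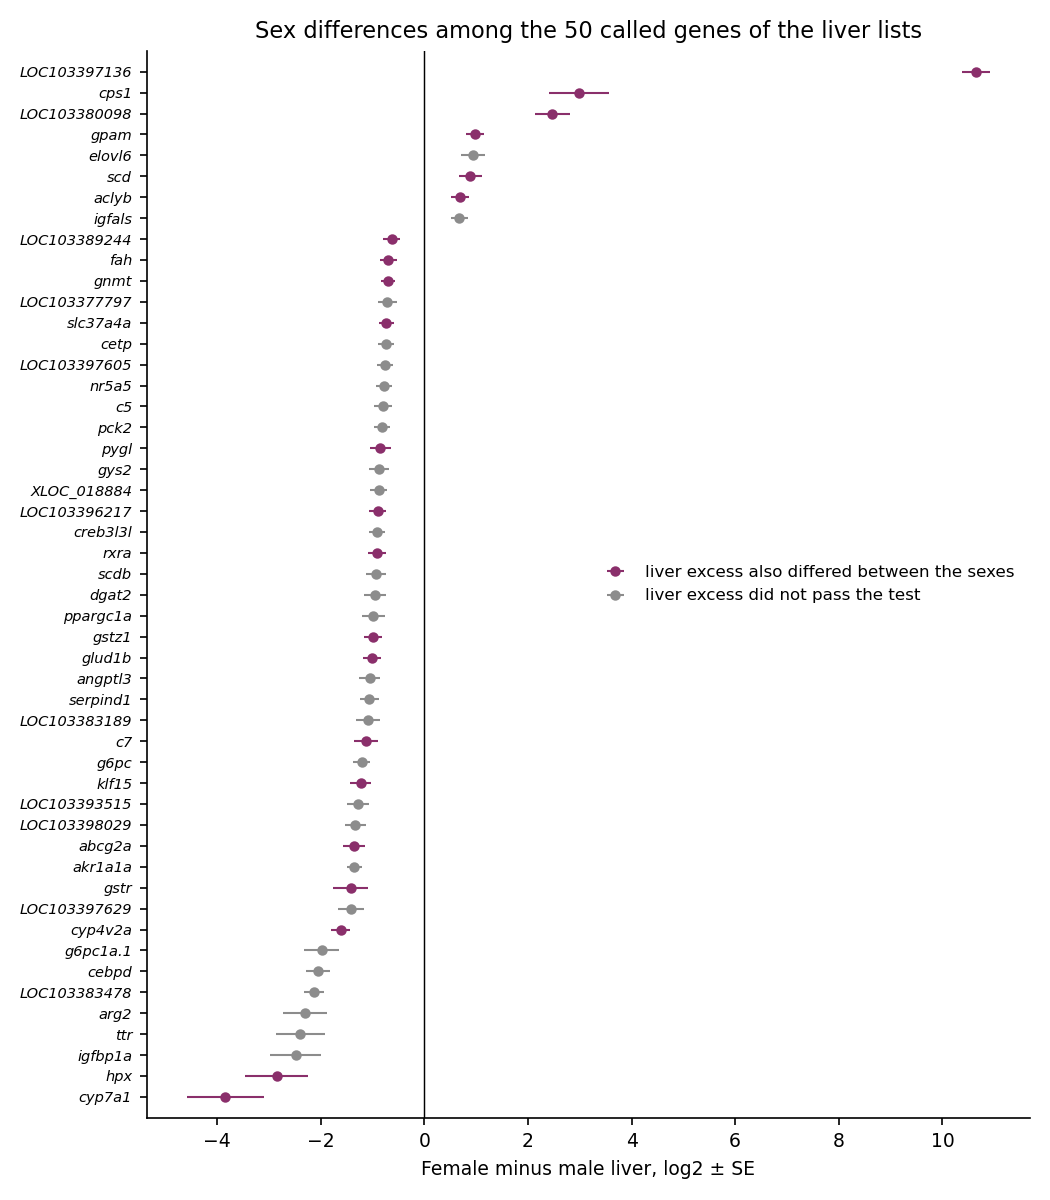
Log2 difference of female minus male liver with its SE (x axis) for the 50 list genes that passed the test; purple marks the 22 genes whose liver excess over brain and pituitary also differed between the sexes. Both tests use the same 6 livers, so the 22 are no separate check. Over all genes tested 1.99% had a larger excess in females and 3.11% in males. There are 42 genes to the left of 0, higher in males, and 8 to the right.

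Of the lists, sugar metabolism had the largest male-leaning median, -0.62. Of its 20 members 6 were higher in males and none in females (5 and none at the count total). Over all genes tested 4.94% were higher in males and 1.88% in females, so none in females among 20 lies near that share. The glucose-releasing enzyme g6pc had 91.0, 80.0 and 76.7 FPKM in the female livers and 160, 180 and 198 in the male livers, a 2.32-fold difference (edgeR adjusted p = 0.00244). Its relative g6pc1a.1 was 3.94-fold higher in males (edgeR adjusted p = 0.0138). Of 6 fits that left out 1 liver pool, the call held in 6 for g6pc and in 3 for g6pc1a.1. It held in 3 for pck2 and slc37a4a, and in 1 for gys2 and pygl. Of the liver transcription factors 6 of 20 were higher in males and none in females, and at the count total 4 and 1. The largest was cebpd, at 12.7, 26.8 and 22.2 FPKM in females and 56.8, 83.8 and 95.4 in males (4.13-fold, adjusted p = 0.00121).

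Xenobiotic genes were higher in males in 8 of 47 cases (7 at the count total) and in females in none. Over all genes tested the shares were 4.94% and 1.88%, so none in females lies near the share over all genes. The cytochrome P450 3A gene LOC103383478 had 41.6, 42.9 and 33.6 FPKM in the female livers and 157, 140 and 184 in the male livers, a 4.36-fold difference (adjusted p = 0.000165), and cyp4v2a differed 3.05-fold. Haem carrier hpx had 1966, 727 and 2046 FPKM in females and 14596, 4713 and 12340 in males: it was 7.22-fold higher in males (adjusted p = 0.0368), and this call was lost at the count total (0.0816) and in 5 of 6 fits that left out a liver pool. For cyp7a1 the male livers were 14.3-fold higher (adjusted p = 0.0242; 0.0512 to 0.119 in the 3 fits without 1 pool that could test it).

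Fatty acid genes were the one list with more members higher in females, 4 against 3 of 27 tested (1.88% and 4.94% over all genes). Those 4 were aclyb, scd, elovl6 and gpam, which act in making fatty acids or joining them to glycerol, at 1.61 to 1.98-fold. None of these 4 was liver-enriched. All were low: scd, a desaturase, had 3.38, 5.05 and 5.69 FPKM in the female livers and 2.78, 2.0 and 2.22 in the male livers, and the 4 calls held in 1 to 3 of 6 fits without 1 liver pool. The 3 higher in males were dgat2, which was liver-enriched, and a second desaturase scdb and the coactivator ppargc1a, which were not. At the count total the list had 3 against 1, since aclyb (adjusted p = 0.0554), scdb (0.0591) and ppargc1a (0.0579) no longer passed. In the carrier list igfals, which keeps IGF-I in the circulation, was 1.61-fold higher in females (46.7, 44.8 and 45.4 FPKM against 27.6, 29.1 and 22.6; adjusted p = 0.0379), a call that no fit without 1 liver pool kept. For igf1 and ghr the livers of the sexes differed by 0.49 and -0.37 on the log2 scale (edgeR adjusted p = 0.267 and 0.257), while the liver excess of ghr was larger in males by -0.90 ± 0.19 (adjusted p = 0.00693). The list genes in these last 3 paragraphs were named after their values were seen, except those named earlier.

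Among all liver-enriched genes the 5 largest male-leaning differences were in LOC103393458 (heat shock protein 70), slc25a25a, fosab, gadd45b and miox, at -4.31 to -3.64 on the log2 scale. Hsp70 had 1.21, 3.92 and 12.1 FPKM in the female livers and 117, 122 and 69.6 in the male livers, and its call (adjusted p = 0.0426) was lost at the count total and in 4 of 6 fits without 1 liver pool. The DNA damage response gene gadd45b had 1.31, 4.56 and 8.12 against 37.7, 112 and 62.8, and its call (adjusted p = 0.021) was lost at the count total and in 3 of 6 fits without 1 liver pool. Since genetic males carry no W, a female lean of genes placed on W was fixed in advance and is no result about the liver programme. The 5 largest female-leaning differences were LOC103397136 and LOC103397075, LOC103397165, LOC103397084 and LOC103396923, all placed on W. The last 4 had 1.04 to 15.1 FPKM in the female livers and were listed at 0 in all 3 male livers. Of these, LOC103397075, LOC103397165 and LOC103397084 were enriched over brain and pituitary with TMM, by 0.69 to 1.59, and had negative differences at the count total. With TMM and 6 groups of sex and tissue in the fit none of these 3 calls held, and the smaller difference was 0.04 for LOC103397075, -0.69 for LOC103397165 and -1.06 for LOC103397084.

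By chromosome of Cse_v1.0, 209 of 754 tested Z genes (27.7%), 27 of 184 W genes (14.7%) and 4070 of 15469 autosomal genes (26.3%) were liver-enriched. The fit included male pools, which carry no W, so the W share cannot be set against the others. Of the 4536 liver-enriched genes, a mean of 1 FPKM or more was reached by 3968 in brain, 3861 in pituitary, 3437 in ovary and 4032 in testis. The same count was not made over all genes tested, so it describes the set only.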

How the data were processed

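RNA-seq was made from 24 pools, per the labels, and 18 were compared here. The deposited table holds, per gene and library, FPKM computed by the authors and estimated counts made by the authors, of which 97.1 to 98.4% were whole; counts were rounded. Bowtie2 and TopHat2 are named per the submitters' processing notes; the quantifier, genome build, annotation and strand setting are not given in the sources used here. Of 22773 entries, 20373 carry an NCBI gene identifier, and 19502 of these matched the reference gene table (Cse_v1.0), used for symbols, products and chromosomes only.

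Genes that reached 1 FPKM in 3 libraries of a fit were tested on counts with edgeR 4.0.16 in R 4.3.3 (TMM, robust quasi-likelihood, Benjamini-Hochberg over all genes, threshold 0.05), a plan that foresaw limma had no counts been present. Tissue and sex entered the 18-library fit; 6 groups of sex and tissue gave the within-sex contrasts and the liver excess; the 6 livers alone gave the comparison of the sexes. The SE is the log2 difference over the square root of its F. On counts simulated for the liver contrasts over 17770 genes, 88% of genes changed 2-fold and 100% of those changed 4-fold were recovered. Apart from the changed genes, each simulated gene had the same mean in all tissues, and all genes had the same spread. The simulation therefore held no shift in composition like that of the livers and cannot speak to calls that depend on the scaling. Alternatives used DESeq2 1.42.0, limma 3.58.1 on log2(FPKM + 1) or log2(FPKM + 0.1), other scalings and filters, and single libraries left out. Before limma the deposited FPKM were divided by the TMM factors.

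Named genes are the 12 most abundant enriched genes, up to 4 enriched and 2 other members of each list by liver level, the 8 largest differences, the 8 most abundant depleted genes, the 5 largest sex differences and 4 largest excess differences in each direction, key genes fixed by name and those nearest the threshold. The comparison, the 12 programme lists, the 12 marker lists and these rules were chosen with earlier results of these data known, and some list entries were removed after their products were read. Some genes that these rules name are not reported here. No sequence was used.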

Additional observations from a re-analysis of the deposited data

Results flagged for a closer look

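Among the genes chosen by the naming rules and the list genes that differed between female and male livers, 31 had a liver excess over brain and pituitary that differed between the sexes by the interaction test (edgeR quasi-likelihood, adjusted over 17770 genes). The log2 value, female minus male, was negative for 23 of them, with liver higher in males relative to the mean of brain and pituitary. Of those named by rule these were cyp7a1 (-5.17), fosab (-4.51), dusp2 (-3.86), junbb (-3.73), miox (-3.69), gadd45b (-3.56), slc25a25a (-2.45), rxra (-1.79), gstr (-1.43), abcg2a (-1.01), glud1b (-0.93) and ghr (-0.90). The list genes were hpx (-2.77), klf15 (-2.22), cyp4v2a (-1.42), LOC103396217 (-1.31), c7 (-1.31), LOC103389244 (-1.15), fah (-1.14), gstz1 (-1.01), gnmt (-1.01), pygl (-0.94) and slc37a4a (-0.89). It was positive for 8, LOC103397136 (10.21), cps1 (3.20), plod2 (2.68), LOC103380098 (2.65), scd (1.19), gpam (0.92), LOC103381370 (0.58) and aclyb (0.56). Not all of the 31 were liver-enriched: cyp7a1, rxra, abcg2a, scd, gpam and aclyb were not, and LOC103381370 was liver-depleted. Some of the genes looked at were chosen for the size of this same difference or for a sex difference in liver. The number of calls and their male lean therefore follow in part from the choice. Over all genes tested the excess was larger in females for 1.99% and in males for 3.11%.

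The call held in every alternative that could test the gene for 9 of the 31, namely cyp7a1, fosab, gadd45b, miox, dusp2, junbb, rxra, LOC103397136 and LOC103380098. In 16 others it was lost in 1 or 2 alternatives, among them the one requiring a 2-fold difference. It held in 11 of 31 alternatives for slc25a25a, 16 for aclyb, 18 for LOC103381370 and for c7, and 25 for cyp4v2a and for LOC103396217; at the count total slc25a25a and LOC103396217 did not pass.

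Outside the comparison, female gonad 2 carried liver transcripts: its hepatocyte list summed to 2800 FPKM, against 89.3 and 112 in the other ovary pools. Its source was not tested.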

How the results depend on the processing

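The set of liver-enriched genes moved most with the scaling. At the count total there were 1121 enriched and 13997 depleted genes, 1033 enriched within females and 1083 within males. Requiring at least 2-fold gave 2206 enriched, 3336 depleted, 2009 within females, 2144 within males, 60 differing in liver excess (21 larger in females, 39 in males) and 156 between female and male livers (87 and 69). DESeq2 gave 1441 genes differing in excess (675 and 766) and limma on log2(FPKM + 1) gave 1680 (722 and 958). Between female and male livers, a filter at 5 FPKM left 318 genes (71 and 247) and all 18 libraries in 1 fit gave 2164 (872 and 1292). Of the 4536 enriched genes DESeq2 kept 94.7%, limma on log2(FPKM + 1) 98.9% and leaving out single libraries 95.4 to 98.3%. For limma the FPKM were first divided by the TMM factors, so its 98.9% is no check of the scaling. None of these alternatives used the count total, which kept 24.7%. With single libraries left out the counts were 4338 to 4509 enriched, 5252 to 5470 depleted, 3747 to 4071 within females, 4027 to 4284 within males, 565 to 1164 for the excess and 198 to 680 between the livers.

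At the count total the weaker contrast changed sign for apoeb (-0.06), acadm (-0.82), LOC103384097 (-0.56), p4hb (-0.56), LOC103399827 (-0.80), pdia3 (-0.91), LOC103397075 (-0.60), LOC103397165 (-1.36), LOC103397084 (-1.21), dusp2 (-0.31), plod2 (-0.01), LOC103380098 (-0.18), igf2 (-1.12), snrpg (-1.64) and mlx (-1.67). With 6 groups in the fit it did so for LOC103397165 (-0.69) and LOC103397084 (-1.06). The cause was not tested.

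Deviations from the group mean in same-numbered pools of different tissues correlated at -0.0127 to 0.189. The labels do not say whether such pools held the same fish. With the replicate block there were 4475 enriched and 5306 depleted genes, 4032 within females, 4271 within males, 898 for the excess and 951 between the livers. Removing the exocrine pancreas list before scaling, chosen after seeing the data, gave 4519 enriched and 5388 depleted genes. Leaving out both pituitary pools numbered 3 gave 4439 and 5208. Pools of 3 per group limit the sex comparisons, and genes near 0 in liver could not be compared between the sexes.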
